A study of Mus musculus with 4 samples.

Results

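The genes described here are XBP1, the transcription factor of the endoplasmic reticulum (ER) stress response, and 9 proteins of the ER lumen that assist protein folding. They are Xbp1, Hspa5, Hsp90b1, Pdia4, Pdia6, Calr, Dnajb9, Sdf2l1, Manf and Creld2. These 10 members were taken by gene symbol, matched to Entrez identifiers, out of 27179 genes in the count files. The RNA was measured by bulk sequencing of livers from wild type C57BL/6 mice labelled male, with 2 libraries from mice fasted overnight with free access to water and 2 libraries from non-fasted mice with free access to food and water. The ages of the mice are not given beyond that they were matched, no allele was altered and no drug was given in either group. The study compared the groups to see how the nutritional state changes the liver before an overdose of acetaminophen (APAP). Whether the 2 libraries of a group came from separate mice is not stated in the sources used here, and p-values therefore describe only the spread between libraries, which may be technical.

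Secretory proteins fold in the ER, and hepatocytes load it heavily because they make most plasma proteins. When unfolded proteins accumulate, the sensors IRE1, PERK and ATF6 leave the chaperone BiP and signal to the nucleus. IRE1 cuts Xbp1 mRNA, RTCB rejoins it, and the spliced mRNA encodes the active factor, which with ATF6 switches on chaperones and degradation factors. In liver this branch is known to respond to feeding and refeeding. Gene counts add up both spliced and unspliced Xbp1 mRNA, so splicing was not measured here.

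Facts of the 4 libraries bear on every value below. Total counts were 13541405 and 13528015 in fasted liver against 36975921 and 36943535 in non-fasted liver. The 14 hepatocyte markers were present in all libraries, with Alb, the gene of serum albumin, at 927901 and 928276 counts in fasted liver against 1066415 and 1061151 in non-fasted liver, and together they took 13.7% of the counts in each fasted library but 5.52% and 5.49% in non-fasted liver. Of 14 markers of placental trophoblast, 13 had counts in each non-fasted library, and Synb had none in any library. Their sum was 6.97% and 7.03% of the non-fasted counts, against 6 and 8 counts in the fasted libraries, where 11 and 9 of them were at 0. Tpbpa alone, made by spongiotrophoblast, reached 764320 and 770857 counts in non-fasted liver but 3 and 0 in fasted liver. Xist, an RNA of female cells, had 25772 and 26316 counts in the non-fasted and 2 and 1 in the fasted libraries, which goes against the male label of the former. The groups follow the sample titles, since the treatment field lists fasting for all 4 libraries. Trophoblast also secretes much protein, and how much of any ER transcript in the non-fasted libraries came from it was not tested. Fewer cells of a type and less RNA per cell cannot be told apart in bulk RNA. Both non-fasted libraries carry these transcripts, so no comparison without them could be made.

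Sequence elements in the promoters of some members are shown before the values of the members, because ATF6 and XBP1 are known to bind the ER stress response element (ERSE). Promoter windows of 250 bases before to 50 after the start of the gene came from RefSeq (build GRCm38.p6), an earlier build than the GRCm39 of the counts, and 9 members matched. The ERSE was searched on both strands as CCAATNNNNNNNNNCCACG, and 5 of the 9 members held it, against 37 of 27025 genes in the table (0.137%) and 39 of 32851 windows (0.119%). The 37 genes include these 5. Because ATF6 and XBP1 are known to switch on ER chaperones, the choice of members favoured this element, and the share is only a description. The stretches below carry the ERSE, with the letters of the motif in capitals and 12 bases on either side. On the opposite strand the element reads CGTGG, then 9 bases, then ATTGG.
Hspa5, chr2:34772013-34772055, plus strand: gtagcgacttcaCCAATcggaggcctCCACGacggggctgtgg
Pdia6, chr12:17266479-17266521, plus strand: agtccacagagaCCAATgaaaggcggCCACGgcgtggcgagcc
Calr, chr8:84847063-84847105, minus strand: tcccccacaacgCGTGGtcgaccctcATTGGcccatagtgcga
Creld2, chr15:88819508-88819550, plus strand: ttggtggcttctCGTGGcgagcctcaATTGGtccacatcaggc
Hsp90b1, chr10:86705521-86705668, minus strand: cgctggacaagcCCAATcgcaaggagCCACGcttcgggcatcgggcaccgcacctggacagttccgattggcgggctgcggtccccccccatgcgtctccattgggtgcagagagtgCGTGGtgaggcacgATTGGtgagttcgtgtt
Hsp90b1 held 2 copies, from -212 to -194 and from -107 to -89 relative to its start, and the copy of Hspa5 lay nearest to the start, from -65 to -47. The windows of Xbp1, Pdia4, Dnajb9 and Sdf2l1 held no such run of letters. A second form of the element, ATTGGNCCACG, and the element TGACGTGG were in none of the 9 windows, against 0.0444% and 0.714% of the genes in the table. Among 113 genes of the wider ER lists described further on that were in the table, 5 held the ERSE (Canx, Dnajc3, Derl3, Syvn1 and Ero1b), 3 the second form and 8 the element TGACGTGG. Matches are letters in a window and were not tested for binding.

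**Figure D1:**
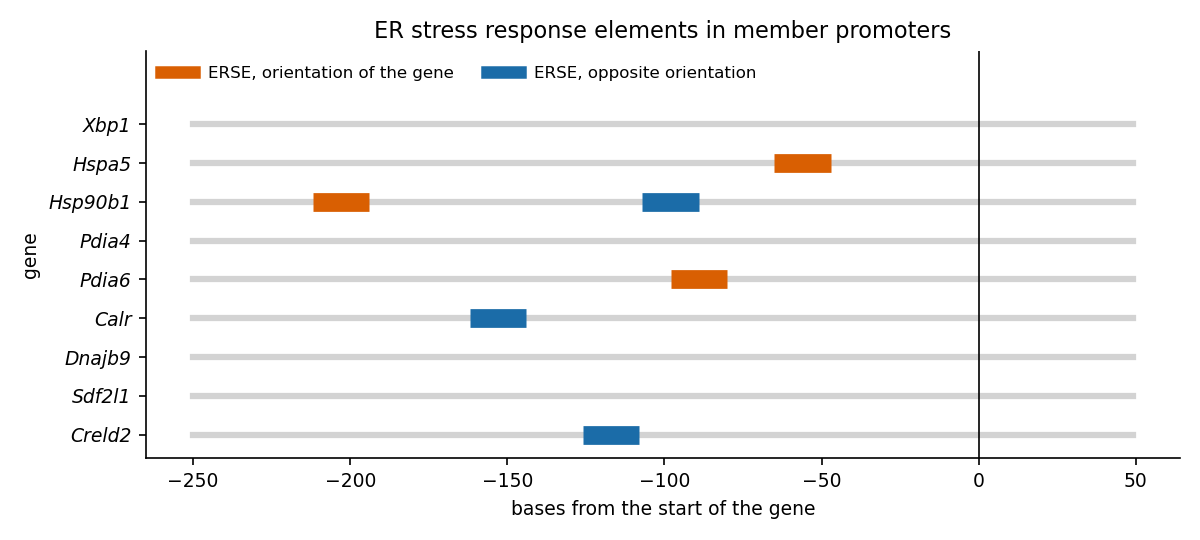
Positions of the ERSE in the promoter windows of the 9 matched members, in bases from the start of the gene (x axis) by gene (y axis), in the orientation of the gene (orange) or the opposite one (blue). Hsp90b1 has 2 elements, Hspa5, Pdia6, Calr and Creld2 have 1 each, and the other 4 windows have none.

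The chaperones were mostly lower in the fasted livers by median of ratios, while the direction of Xbp1 itself turned with the scaling. After scaling by median of ratios, which sets the typical gene equal between libraries, 8 of the 10 members were lower in the fasted libraries, Xbp1 was higher and Dnajb9 did not pass the test (edgeR's quasi-likelihood test, adjusted p of 0.05). All 10 passed the filter on low counts. In the same fit 45.0% of 15470 genes tested were lower and 37.2% higher, and the median log2 fold change was -1.63 over the members and -0.13 over all genes tested. Xbp1 turned lower when counts were scaled to their totals or to the 14 hepatocyte markers, under which all 10 members were lower. The background was then 62.7% lower and 22.9% higher with total counts, and 91.4% lower and 3.89% higher with hepatocyte markers. Together the members took 0.248% and 0.246% of the fasted and 0.974% and 0.972% of the non-fasted total (95% intervals by Wilson's method of 0.246 to 0.251, 0.244 to 0.249, 0.971 to 0.978 and 0.968 to 0.975%, counting error only).

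Xbp1 (Entrez gene 22433) had 6119 and 6003 normalized counts in fasted liver against 5048 and 5008 in non-fasted liver. Both fasted values lay above both non-fasted values, with a log2 fold change of 0.27 (standard error, SE, 0.027, adjusted p = 1.5e-05). This small rise was a fall of 0.24 on the log2 scale by total counts and of 1.58 by hepatocyte markers. With a fixed coefficient of variation of 0.2 between samples its adjusted p was 0.44 in edgeR.

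The general folding machines of the lumen, BiP and GRP94, both fell. Hspa5 (14828) encodes BiP, the HSP70 of the ER, which holds unfolded chains and keeps the stress sensors inactive. It had 16419 and 16355 normalized counts in fasted liver against 55895 and 55341 in non-fasted liver. The groups lay far apart, 3.39-fold, with a log2 fold change of -1.76 (SE 0.011, adjusted p = 1.1e-13). Hsp90b1 (22027) encodes GRP94, the HSP90 of the ER, which completes the folding of selected clients. It had 18197 and 17939 normalized counts in fasted liver against 46992 and 47364 in non-fasted liver, a log2 fold change of -1.38 (SE 0.0088, adjusted p = 1.1e-13). By hepatocyte markers the log2 fold changes were -3.61 for Hspa5 and -3.24 for Hsp90b1.

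The lectin chaperone and the disulfide isomerases fell as well. Calr (12317) encodes calreticulin, which binds glycoproteins and buffers calcium. It had 12268 and 12031 normalized counts in fasted liver against 34580 and 34455 in non-fasted liver, a log2 fold change of -1.51 (SE 0.0079, adjusted p = 3.5e-14). Pdia6 (71853), a protein disulfide isomerase that also attenuates IRE1 signalling, fell too. Its normalized counts were 5616 and 5724 in fasted liver against 22732 and 22509 in non-fasted liver, 3.99-fold apart (log2 fold change -2.00, SE 0.017, adjusted p = 9.7e-13). Pdia4 (12304), its relative with more thioredoxin domains, differed least among the 8 that fell. It had 3913 and 3999 normalized counts in fasted liver against 7980 and 7960 in non-fasted liver (log2 fold change -1.01, SE 0.027, adjusted p = 1.0e-09).

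The co-chaperones of BiP parted ways. Dnajb9 (27362) encodes ERdj4, a J protein that brings BiP to IRE1 and to misfolded clients, and is known as a target of XBP1. It had 1652 and 1792 normalized counts in fasted liver against 1754 and 1754 in non-fasted liver. The groups overlapped, at a log2 fold change of -0.03 (SE 0.040, adjusted p = 0.56), and the gene was at -0.53 by total counts and -1.88 by hepatocyte markers, lower in both. Sdf2l1 (64136), which works with BiP and J proteins to keep chains soluble, had 275 and 250.4 normalized counts in fasted liver against 1468 and 1462 in non-fasted liver. This 5.58-fold difference corresponds to -2.48 on the log2 scale (SE 0.057, adjusted p = 4.1e-10), on 140 and 127 raw counts in the fasted libraries. Its estimate was the lowest of the members, with that of Creld2 next to it.

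The small secreted or retained proteins of the response, Manf and Creld2, also fell. Manf (74840) encodes a neurotrophic factor that binds BiP and is released under ER stress. It had 1226 and 1189 normalized counts in fasted liver against 4294 and 4350 in non-fasted liver, a log2 fold change of -1.84 (SE 0.039, adjusted p = 2.3e-10). Creld2 (76737), a protein with EGF-like domains and isomerase activity, had 403 and 452 normalized counts in fasted liver against 2236 and 2233 in non-fasted liver. Its difference was 5.23-fold (log2 fold change -2.39, SE 0.052, adjusted p = 2.8e-10), and its fasted libraries differed from each other by 11.4%, the widest gap between 2 libraries of a group among the members. The narrowest gap in the fasted group was 0.389%, for Hspa5, and in the non-fasted group the gaps ran from 0.0441% to 1.29%.

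**Figure D2:**
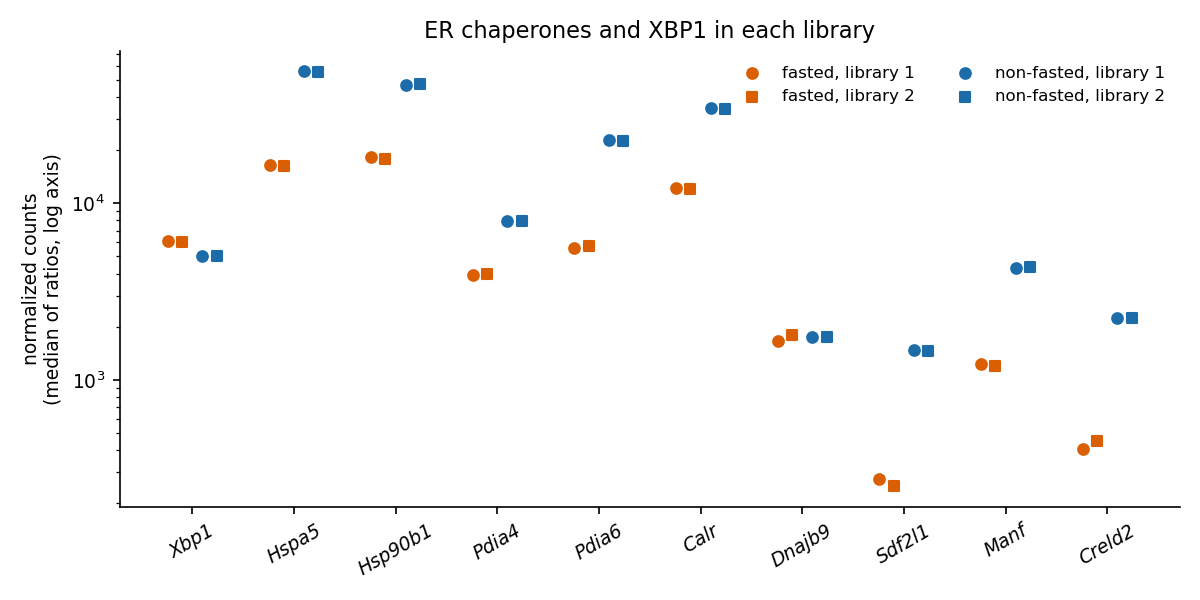
Normalized counts (median of ratios, log axis) of each member in the 4 libraries, with fasted in orange and non-fasted in blue and a circle or square for libraries 1 and 2. In 8 genes both fasted points lie below both non-fasted points, Dnajb9 overlaps, and Xbp1 lies above, an order that total counts and hepatocyte markers turn round. By median of ratios 45.0% of all genes tested were called lower and 37.2% higher. The share of all genes whose groups lie apart was not counted, so the lack of overlap is a description and no result about the members.

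The 8 falls kept their direction under each scaling, but their size followed it. Total counts and hepatocyte markers shift all genes downward alike, so a fall could not turn into a rise and the kept direction is no separate result. The median of all genes tested moved from -0.13 by median of ratios to -0.63 by total counts and -1.98 by hepatocyte markers, and the median of the members from -1.63 to -2.14 and -3.49. Relative to the median of all genes tested the members were at -1.50, -1.50 and -1.51. On that relative scale, by median of ratios, Xbp1 was at 0.40 and Dnajb9 at 0.10, Pdia4 was at -0.88, and the other 7 lay between -1.25 (Hsp90b1) and -2.35 (Sdf2l1). Of all genes tested, 17.4% had a lower log2 fold change than Sdf2l1, 22.2% than Hspa5, 30.2% than Pdia4, 53.3% than Dnajb9 and 63.5% than Xbp1. The 5 members with an ERSE in the promoter window lay between -2.39 and -1.38 by median of ratios, and the 4 without one spanned -2.48 to 0.27, so the ranges overlapped. The 14 hepatocyte markers were all higher by median of ratios, with a median of 1.85, and the 12 trophoblast genes tested were all lower.

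**Figure D3:**
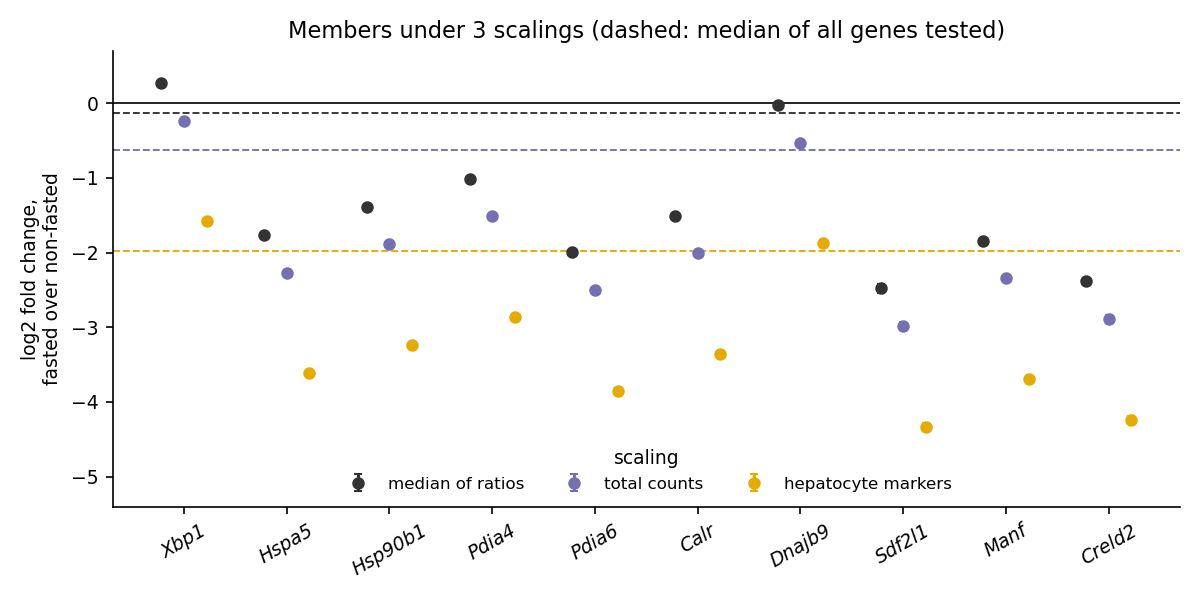
Log2 fold change of each member, fasted over non-fasted, with standard errors as bars (mostly smaller than the points), after scaling by median of ratios (black), total counts (purple) or hepatocyte markers (yellow). Dashed lines are the medians of all genes tested, at -0.13, -0.63 and -1.98. Xbp1 and Dnajb9 lie above the dashed line of each scaling and the other 8 below it, and Xbp1 is above 0 in black and below 0 in the other colours.

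Ratios between members within a library do not depend on scaling. For each Xbp1 count the fasted libraries held 2.68 and 2.72 counts of Hspa5, and the non-fasted libraries 11.1 and 11.0. Pdia6 went from 0.918 and 0.954 per Xbp1 count in the fasted to 4.50 and 4.49 in the non-fasted libraries, and Sdf2l1 from 0.0449 and 0.0417 to 0.291 and 0.292. Dnajb9 stayed near, with 0.270 and 0.299 against 0.348 and 0.350. All 9 ratios to Xbp1 were lower in both fasted libraries than in both non-fasted libraries. Of all genes tested, 63.5% had a lower log2 fold change than Xbp1, so a lower ratio to Xbp1 is shared with most genes. With 2 libraries a group, an exact two-sided permutation test over libraries cannot go below p = 0.333, and these ratios are given as a description. The sum of the members was made up differently too, with Xbp1 at 9.26% and 9.13% of it in fasted liver against 2.76% and 2.75% in non-fasted liver. Hsp90b1, at 27.5% and 27.3%, took the largest share in the fasted libraries, whereas Hspa5, at 30.5% and 30.3%, took it in the non-fasted libraries. Set against Alb, an ER client and hepatocyte gene, Hspa5 had 9.01 and 8.93 counts per 1000 Alb counts in fasted liver against 103 and 103 in non-fasted liver, and Xbp1 3.36 and 3.28 against 9.32 and 9.29. By hepatocyte markers 91.4% of all genes tested were lower in the fasted libraries, with a median log2 fold change of -1.98. The part of other cell types, trophoblast among them, in the ratios to Alb was not tested.

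**Figure D4:**
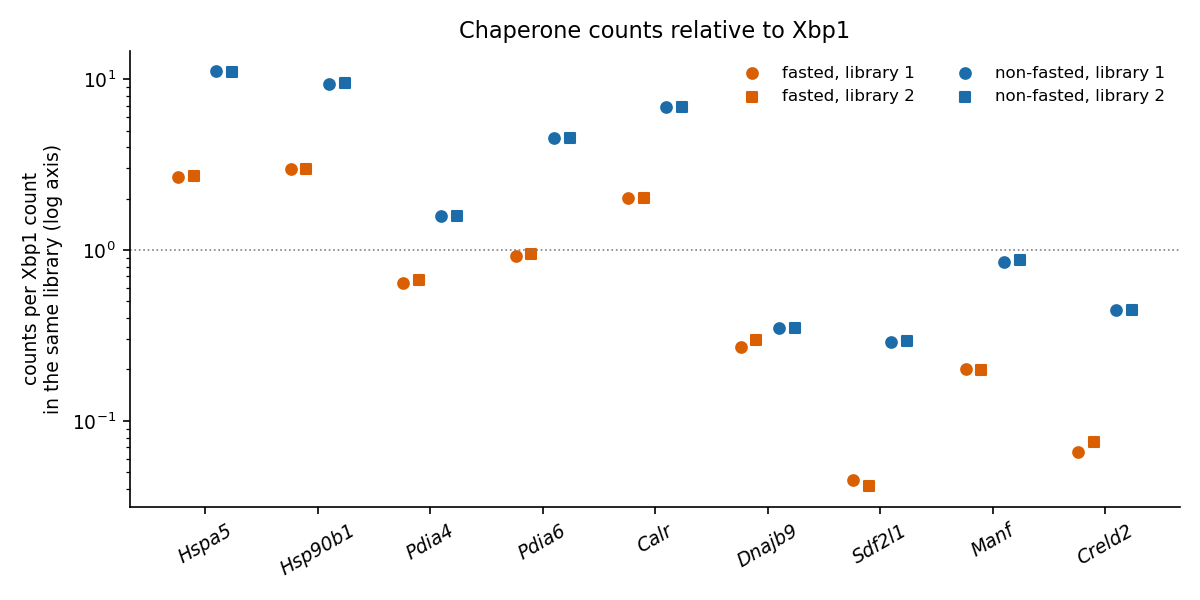
Counts of each chaperone per count of Xbp1 in the same library (log axis), with fasted in orange and non-fasted in blue and a circle or square for libraries 1 and 2. The blue points lie above the orange points for all 9 genes, closest for Dnajb9 at 0.270 to 0.350. Of all genes tested, 63.5% had a lower log2 fold change than Xbp1.

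Levels per length give nearly the same order in both groups, except for Xbp1 and Dnajb9. Normalized counts per kilobase of annotated exons were highest for Hsp90b1, at 6396 ± 64.6 in the fasted and 16700.2 ± 92.9 in the non-fasted livers (SD, n = 2), followed by Calr at 5563 ± 76.8 and 15805 ± 40.5, Hspa5 at 4365 ± 12.0 and 14816 ± 104 and Pdia6 at 2607 ± 35.1 and 10400.0 ± 72.5. In the fasted group Xbp1 came next at 2537 ± 34.6, with the gap to Pdia6 about as wide as their SDs together, and Pdia4 after it at 1649 ± 25.3. In the non-fasted group Pdia4 stood above Xbp1, at 3322 ± 5.80 against 2105 ± 11.6. Dnajb9 was 7th of 10 in the fasted livers at 700 ± 40.3, ahead of Manf at 490 ± 10.5, Creld2 at 313 ± 25.3 and Sdf2l1 at 237 ± 15.7. It was last in the non-fasted livers at 713 ± 0.222, below Manf at 1754 ± 16.1, Creld2 at 1636 ± 1.54 and Sdf2l1 at 1322 ± 3.87. All other neighbours in both orders lay apart by more than their SDs together.

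The sensors and transducers of the unfolded protein response, listed with some genes downstream of PERK, did not move as a block. Of 20 genes, 14 were lower, 4 higher, Traf2 did not pass the test at 0.14, and Ern2, the IRE1 of the gut, was not tested, with 0, 0, 0 and 2 counts. Of all genes tested, 45.0% were lower and 37.2% higher. With hepatocyte markers 18 were lower and 1 higher, beside 91.4% and 3.89% of all genes tested. The 3 sensors differed: Eif2ak3, which encodes PERK, fell by 1.49 on the log2 scale (SE 0.067, adjusted p = 4.8e-08), Ern1, which encodes IRE1, was at -0.21 and Atf6 at 0.11. The call of Atf6 (adjusted p = 0.022) was lost with DESeq2, other filters, or without fasted library 1, non-fasted library 1 or non-fasted library 2, at 0.06 to 0.12. Atf6 turned to -0.39 by total counts and to -1.74 by hepatocyte markers. Rtcb, the ligase that joins Xbp1 exons, was higher at 0.29, and lower at -0.22 by total counts and -1.56 by hepatocyte markers. Atf6b was at -0.72, and the proteases that release ATF6 from the Golgi, Mbtps1 and Mbtps2, were both at -0.23. Of the genes downstream of PERK, Atf4 was at -0.45, its target Ddit3, which encodes CHOP, at -2.29, the pseudokinase Trib3 at -0.87 and the phosphatase subunit Ppp1r15a, which encodes GADD34, at -2.76, while the constitutive subunit Ppp1r15b was at 0.16 (-0.34 by total counts and -1.69 by hepatocyte markers) and Eif2s1, the substrate of PERK, at -0.11. The call of Mbtps2 (adjusted p = 0.036) was lost without either fasted library, at -0.15 and -0.25, and without non-fasted library 2, at -0.18, as well as with DESeq2, limma-voom and no filter, at -0.26 to -0.23. That of Eif2s1 (adjusted p = 0.044) was lost with any 1 of the 4 libraries left out, at -0.12 to -0.04, and with TMM, DESeq2, limma-voom, the exact deviance and the replicate block, at -0.11. The call of Ppp1r15b ended without fasted library 1, at 0.19, and with no filter, at 0.14.
Creb3l3, the membrane-bound factor CREBH of hepatocytes known to act in fasting, was the 1 gene of this list called higher also by total counts and by hepatocyte markers, with 5144 and 5066 raw counts in fasted liver against 3360 and 3169 in the deeper non-fasted libraries. It rose by 2.60 on the log2 scale (SE 0.033, adjusted p = 1.2e-11), at 2.09 by total counts and 0.75 by hepatocyte markers. Its relatives Creb3l1 and Creb3l2 had 6 and 7, and 90 and 98, raw counts in fasted liver against 2624 and 2603, and 3808 and 3803, in the non-fasted. Creb3 was at -0.98 and Wfs1, an ER membrane protein of calcium balance, at -3.26.

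The wider folding, degradation and transport genes of the ER were taken as 6 lists of 143 genes, the sensors included, of which 139 were tested. By median of ratios 84 were lower and 39 higher, with a median of -0.23, beside 45.0% lower, 37.2% higher and a median of -0.13 over all genes tested. The numbers changed to 116 and 14 by total counts (62.7% and 22.9% of all genes) and to 138 and 1 by hepatocyte markers (91.4% and 3.89%), so that much of each count is shared with genes at large. With a fixed coefficient of variation of 0.2, 46 of the 139 were lower and 13 higher, beside 5243 lower and 3714 higher of all 15470 genes tested. Each list held both directions by median of ratios.
Among 20 other disulfide isomerases and ER oxidases, of which 18 were tested, 10 fell and 5 rose, with a median of -0.14, about that of all genes tested. Pdia3, the partner of calreticulin, was at -1.41, Pdia5 at -1.54, Erp29 at -1.38 and the oxidase Ero1a at -2.84. P4hb, the founding isomerase and the most abundant of the list, was at -0.14. The oxidases Ero1b and Qsox1 were higher, at 1.38 and 0.82, and turned to -0.47 and -1.03 by hepatocyte markers.
Of 27 other chaperones, co-chaperones and prolyl isomerases, of which 26 were tested, 17 fell and 6 rose, with a median of -0.77. Serpinh1, the chaperone of collagen, was at -6.98, with 71 and 71 raw counts in fasted liver against 34638 and 34997 in non-fasted liver. The isomerases Ppic, Fkbp9 and Fkbp11 were at -4.86, -2.57 and -2.28. Dcn and Des, listed as markers of stellate cells and also made by other stroma, moved with Serpinh1, from 1693 and 1552 to 60425 and 60435 counts and from 38 and 27 to 37279 and 37120. In the same list of 6, Hand2 and Rgs5 were lower too, whereas Lrat and Reln were higher, at 1.42 and 1.58 (-0.43 and -0.28 by hepatocyte markers), and the part of these cells in the result was not tested. Canx, the membrane-bound counterpart of calreticulin, was at -0.02 (adjusted p = 0.36). It was called lower by total counts at -0.52, by hepatocyte markers at -1.87, with no filter at -0.04, with at least 10 CPM at -0.07 and without non-fasted library 1 at -0.03. Cnpy3 and Sec63 were higher, at 0.56 and 0.53, but did not pass the test by total counts, at 0.053 and 0.028, and turned to -1.29 and -1.32 when hepatocyte markers set the scale.

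Of 23 genes of ER-associated degradation, 10 rose, 10 fell and 3 did not pass the test by median of ratios, with a median of -0.01, shares near those of all genes tested (37.2% higher and 45.0% lower). Derl3, a derlin known as a target of XBP1, was at -4.05, with 52 and 40 raw counts in fasted liver against 2922 and 2990 in non-fasted liver, and Edem2, which trims mannose from misfolded glycoproteins, at -1.37. The ubiquitin ligase Rnf5 and the adaptor Aup1 were higher, at 1.22 and 1.10, and turned to -0.63 and -0.76 by hepatocyte markers. By that scaling all 23 were lower, beside 91.4% of all genes tested. Os9, a lectin of the same pathway and the most abundant of the list, was at 0.15, turned to -0.36 by total counts and -1.71 by hepatocyte markers, and lost its call without fasted library 1, at 0.16.
Of 33 genes of the translocon, signal peptidase and oligosaccharyltransferase, 23 fell and 5 rose, with a median of -0.54. Ddost, Rpn2 and Tusc3 of the oligosaccharyltransferase, which adds N-glycans, were at -1.89, -1.69 and -1.59, and Ssr2 of the translocon-associated complex at -1.14. Ssr3, the most abundant, was at 0.01 (adjusted p = 0.76). The signal recognition receptor Srpra and the translocation protein Tram1 were higher, at 0.61 and 0.46. Tram1 turned to -0.049 by total counts, not past the test, and hepatocyte markers turned Srpra to -1.24 and Tram1 to -1.40.
In the list of the COPII coat, ER exit and KDEL receptors, 10 of 20 genes fell and 9 rose, with a median of -0.03, again beside 45.0% and 37.2% of all genes tested. Mia2, which loads large cargo such as lipoproteins, the coat subunit Sec24a and the GTPase Sar1b were higher, at 1.62, 1.43 and 1.35, but at -0.23, -0.42 and -0.51 with the hepatocyte scaling. Kdelr3, which returns escaped chaperones to the ER, had 2 and 2 counts in fasted liver against 1714 and 1773 in non-fasted liver, a ratio of 225 in favour of the non-fasted after scaling (exact 95% interval 87.8 to 826, counting error only). The cargo receptor Surf4, the most abundant of this list, was at -0.19.

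**Figure D5:**
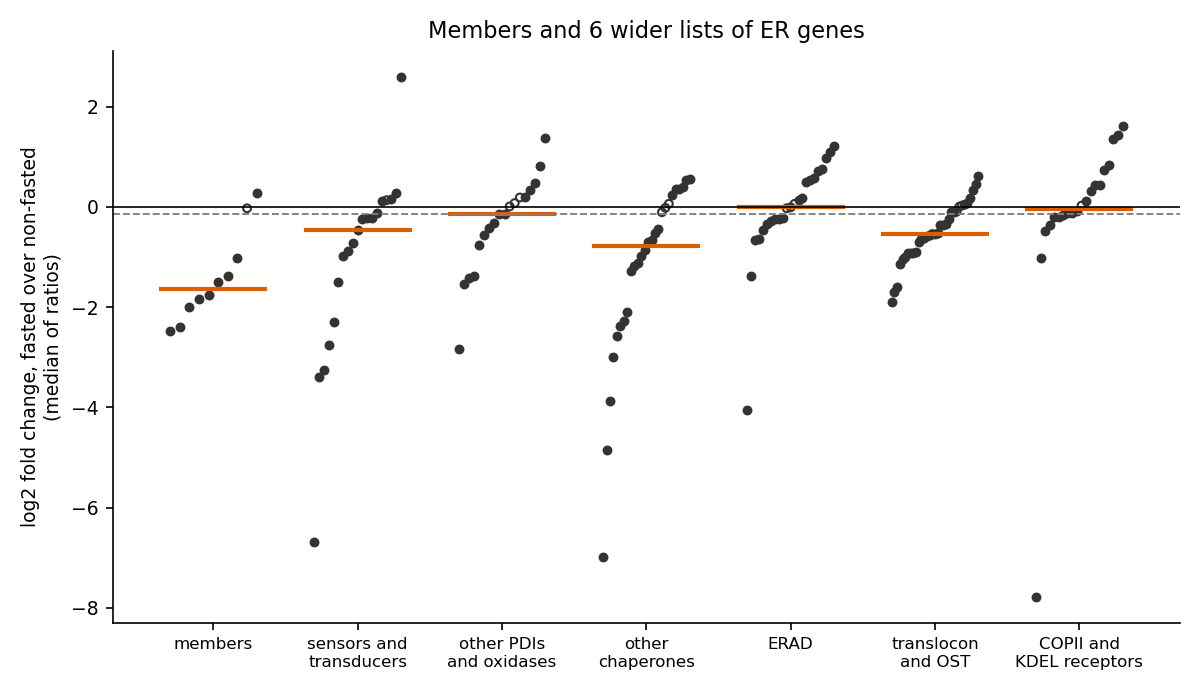
Log2 fold change, fasted over non-fasted, after median-of-ratios scaling for the 10 members and for the tested genes of 6 wider lists (PDIs are protein disulfide isomerases, ERAD is ER-associated degradation, OST is oligosaccharyltransferase). Filled points passed the test, open points did not, orange bars are list medians, and the dashed line is the median of all genes tested at -0.13. The members have the lowest median, at -1.63. By hepatocyte markers every gene but Creb3l3 would lie below 0, and 91.4% of all genes tested were lower by that scaling.

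Other cell types were looked for by their markers, among them plasma and acinar cells, which are rich in ER. Of 6 markers of B and plasma cells, Tnfrsf17 had no count in any library, and Jchain, made by plasma cells, had 52 and 33 counts in fasted liver against 29 and 35 in non-fasted liver. Raw counts of Cd79a were 13 and 12 against 34 and 40, of Ms4a1 7 and 7 against 16 and 16, of Mzb1 3 and 5 against 2 and 3, and of Ighm 65 and 72 against 142 and 153. By median of ratios Jchain and Ighm were called higher, and by hepatocyte markers none was higher and Cd79a, Ms4a1 and Ighm were lower. Of 6 markers of pancreatic acinar cells, Pnlip, Amy2a5 and Prss2 had no count in any library, which allows up to 3 counts in each, and the gene Cpa1 had 0 and 0 counts in fasted liver against 2 and 0 in non-fasted liver. Cela1 alone of that list was well counted, at 410 and 405 in fasted and 521 and 508 in non-fasted liver. The markers of Kupffer cells summed to 2676 and 2672 counts in fasted liver against 11900 and 12092 in non-fasted liver, where Cd68 alone made 9701 and 9883 counts against 100 and 107. By median of ratios Cd68 was lower and the other 5 Kupffer markers, Clec4f, Adgre1, Vsig4, Timd4 and Marco, were higher, with a list median of 2.18. Those of endothelium summed to 2905 and 2839 against 21527 and 21417, with Cdh5, Pecam1, Kdr and Lyve1 lower, and Stab2 and Clec4g, which mark the liver sinusoid, higher at 1.53 and 2.22. Those of stellate cells summed to 2630 and 2370 against 103632 and 103250, with Dcn, Des, Hand2 and Rgs5 lower, and Lrat and Reln higher at 1.42 and 1.58. By hepatocyte markers Clec4f, Vsig4, Timd4, Marco and Clec4g were still higher, Adgre1 did not pass the test, and Stab2, Lrat and Reln turned to -0.32, -0.43 and -0.28. The cholangiocyte markers summed to 577 and 497 against 15247 and 15150. All 6 cholangiocyte markers, among them Krt19 and Krt7, keratins that other epithelia make too, were lower in the fasted libraries. The background for these calls was 45.0% lower and 37.2% higher by median of ratios, and 91.4% and 3.89% by hepatocyte markers. The part of these cell types in the differences of the ER genes was not tested.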

How the data were processed

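RNA of mouse liver was sequenced in 2 fasted and 2 non-fasted libraries. The authors deposited raw counts per gene by Entrez identifier, with no normalization. Per the submitters' processing notes, the tools included STAR, featureCounts, Trimmomatic and DESeq2 1.32.0, and the build was GRCm39. For strand setting, multi-mapping reads and other versions, nothing is given in the sources used here. Symbols came from RefSeq of an earlier build (25275 of 27179 identifiers matched, and all members), and exon lengths are unions of GENCODE basic transcripts of GRCm38.

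Members and lists were chosen with earlier results of these data known. Genes were filtered with filterByExpr of edgeR 4.0.16 (R 4.3.3), scaled by median of ratios over the 15470 genes kept, and tested two-sided by the quasi-likelihood method, adjusted by Benjamini-Hochberg over these genes, at 0.05. Normalized counts use the same size factors. Standard errors were back-calculated from F. Hepatocyte-marker scaling is the median ratio over 14 markers. The common coefficient of variation was 0.00988, and libraries of a group differed slightly beyond counting error (mean squared deviation 1.11 over 12319 and 1.13 over 16086 genes with 20 or more counts, 1 for counting error alone). They were therefore not merged into 1 sample, but so small a spread does not show that they are separate mice. The fits were tried on simulated counts in which few genes changed, in either direction. Most genes differ in the real libraries, so the simulation does not test the choice of scaling.

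Named genes are the members, all transducers with a count, and in each other list the 4 called genes with the largest change at a mean of 10 CPM or more, the most abundant gene and up to 2 that go against the list, beside 4 markers. Herein Synb, Xist, the single markers of other cell types, Dnajc3 and Syvn1, and the genes at 0 were named after their values were seen. Alternatives were TMM and total counts, DESeq2 1.42.0, limma-voom (limma 3.58.1), other filters, an exact deviance, a fixed coefficient of variation, a replicate block and leaving out each library, with 2 combinations added after the data were seen. Figures were drawn with matplotlib 3.10.9.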

Additional observations from a re-analysis of the deposited data

How the results depend on the processing

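Of the 10 members, 1 was higher and 8 lower also with TMM, DESeq2, limma-voom, no filter, the exact deviance, the replicate block and without each library in turn, and 1 and 9 with at least 10 CPM in 2 libraries, where Dnajb9 passed at -0.08. No member was higher, a count of 0, with total counts, hepatocyte markers or a fixed coefficient of variation of 0.2, under which 10, 10 and 8 were lower. The wider ER genes called higher went from 39 to 14 with total counts, 13 with the fixed coefficient (46 lower) and 1 with hepatocyte markers (138 lower, also with the exact deviance, and 134 with the fixed coefficient, both added after the data were seen). Of the 15470 genes tested, those called higher and lower went from 5756 and 6965 to 3550 and 9699 with total counts. They were 602 and 14144 with hepatocyte markers (613 and 14157 with the exact deviance, 224 and 13258 with the fixed coefficient). The fixed coefficient alone gave 3714 and 5243. With at least 10 CPM only 9614 genes were tested. Of these 4157 were higher and 4419 lower, so these counts have a smaller base and do not show a loss of calls. Total counts turned the log2 fold changes of Xbp1 to -0.24, Atf6 to -0.39, Rtcb to -0.22, Traf2 to -0.37, Ppp1r15b to -0.34, Os9 to -0.36, Ssr3 to -0.50 and Tram1 to -0.049. Hepatocyte markers, by each of the 3 fits, turned Xbp1 to -1.58, Atf6 to -1.74, Rtcb to -1.56, Traf2 to -1.72, Ppp1r15b to -1.69, Ero1b to -0.47, Qsox1 to -1.03, Cnpy3 to -1.29, Sec63 to -1.32, Rnf5 to -0.63, Aup1 to -0.76, Os9 to -1.71, Ssr3 to -1.84, Srpra to -1.24, Tram1 to -1.40, Mia2 to -0.23, Sec24a to -0.42 and Sar1b to -0.51. These turns follow from the scaling itself, which shifts all genes alike. With the fixed coefficient 16 of the named genes lost their call, Xbp1 among the members.

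No source used here says that a replicate number marks a shared mouse or day. Deviations of same-numbered libraries correlated at -0.00017 over 11094 genes, and the fit with the replicate block, at 5743 higher and 6929 lower genes, changed the call of Eif2s1 alone among the named genes. Depth limits Sdf2l1 and Creld2 most, with 127 to 229 counts in the fasted libraries.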
